A study of Mus musculus with 6 samples.

Results

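A total of 41 genes of the unfolded protein response and of the integrated stress response were followed in depolarized mouse cortical neurons. The genes were taken by symbol from a list of endoplasmic reticulum (ER) chaperones, ER stress sensors and targets of the transcription factor ATF4. This list was made with earlier results of these data known, and all 41 were found among the 43432 genes of the expression tables. Their roles place 21 in the ER arm (sensors, chaperones, disulfide isomerases and degradation factors) and 20 in the ATF4 arm (regulators, stress effectors, enzymes of amino acid synthesis, amino acid transporters and subunits of the eIF2α phosphatase). The neurons came from the cortex of wild-type C57BL/6 embryos of both sexes, pooled, at E16.5 and were grown for 7 days. On day 6 all cultures, those of the 0 h group included, were silenced overnight with 1 µM tetrodotoxin, which blocks sodium channels, and 100 µM DL-AP5, which blocks NMDA receptors. They were then held in 55 mM KCl, which depolarizes the membrane and lets calcium in through voltage-gated channels, and were collected at once (0 h) or after 2 h or 6 h. Each time point had 2 biological replicates, so that 6 poly(A) RNA-seq libraries were compared. The silenced 0 h cultures serve as the baseline for both later times. There were no silenced cultures without KCl at 2 h or 6 h, so time and added salt cannot be told apart from depolarization.

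When unfolded proteins build up in the ER, the sensors ATF6, IRE1 and PERK are activated. ATF6 is cut to a transcription factor, IRE1 splices the Xbp1 mRNA so that it encodes another, and both raise the transcription of chaperone and degradation genes. PERK is also a kinase of the translation factor eIF2, whose phosphorylation lowers protein synthesis in general but raises translation of Atf4 mRNA, and other kinases that sense amino acid shortage or viral RNA feed into the same step, which is why this branch is called the integrated stress response. In neurons the ER is also a calcium store, and several of its chaperones bind calcium.

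The libraries held 25959298 to 28573067 expected counts each. The activity-regulated gene Fos had a level of 1.77 and 1.5 TPM (transcripts scaled by length to a common library total) before KCl, of 258.57 and 344.81 TPM at 2 h and of 165.48 and 156.7 TPM after 6 h, so the libraries followed their labels. The 2 h replicates stood further apart than the others. Over 12290 genes, replicates differed on the log2 scale with an SD of 0.429 at 2 h, against 0.246 at 0 h and 0.214 at 6 h, and Spearman's rho of that difference with the GC content of the genes was -0.705 at 2 h. The summed level of 11 neuronal marker genes stayed between 5706.2 and 6114.8 TPM in all libraries, although at 6 h 7 of the 11 rose and 2 fell. Among them Gad1 and Gad2, of GABA synthesis, rose by 1.41 and 1.36, and Tubb3, a tubulin, fell by 1.01 on the log2 scale. The summed level of 8 astrocyte and radial glia markers was 4693.9 to 4770.4 TPM at 0 h, 3806.1 to 4363.7 TPM at 2 h and 3310.0 to 3486.4 TPM at 6 h. Most of this sum came from Fabp7, with 3860.83 of 4693.9 TPM in 0 h replicate 1. Of the 8, 6 passed the test below as lower at 6 h than at 0 h. At 2 h 0 of the 8 passed it, and the median log2 fold change was 0.02. None of these 8 markers was at 0. The summed level of 4 markers of dividing cells was 146.8 to 152.4 TPM at 0 h, 137.6 to 159.2 TPM at 2 h and 104.9 to 120.9 TPM at 6 h. Of these 4, 1 was lower and 0 were higher at 6 h than at 0 h, with a median log2 fold change of -0.04. The sums of 5 microglial markers (2.2 to 6.4 TPM) and of 6 vascular markers (2.5 to 3.9 TPM) were low in every library. In bulk RNA, fewer cells of a type and less RNA per cell cannot be told apart, and the part that astrocytes or dividing cells had in the changes below was not tested.

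The promoters of the members were read first, since ATF6, XBP1 and ATF4 act through known response elements. RefSeq windows of GRCm38.p6, from 250 bases before to 50 bases after a gene's start, held 36 of the 41 members. The ER stress element (ERSE, CCAAT and CCACG held 9 bases apart) was found on either strand in 7 of the 36, all of the ER arm, namely Hspa5, Hsp90b1, Calr, Canx, Dnajc3, Creld2 and Pdia6. It was in 0.137% of the 27025 genes with windows. ERSE-II (ATTGG and CCACG, 1 base apart) was found in Dnajb11 and Herpud1, and in 0.0444% of all genes with windows. The following stretches are shown because they hold these letters, in capitals and on the strand of the gene. A CGTGG before an ATTGG is the same element read on the other strand.
Hspa5: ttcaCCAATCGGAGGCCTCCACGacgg
Calr: aacgCGTGGTCGACCCTCATTGGccca
Creld2: ttctCGTGGCGAGCCTCAATTGGtcca
Dnajc3: acaaCCAATCAGCGCCAACCACGaccc
Dnajb11: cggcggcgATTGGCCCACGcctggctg
Herpud1: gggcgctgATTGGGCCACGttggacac
The Hspa5 stretch lies at chr2:34772021-34772047 on the plus strand, that of Calr at chr8:84847071-84847097 on the minus strand and that of Creld2 at chr15:88819516-88819542 on the plus strand. The stretches of Dnajc3 (chr14:118937823-118937849), Dnajb11 (chr16:22857844-22857870) and Herpud1 (chr8:94386369-94386395) are all on the plus strand. All but that of Dnajb11 lie upstream of the RefSeq start, although that of Hspa5 lies within the gene as GENCODE, whose gene positions are given for each gene described, draws it.

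The C/EBP-ATF response element (CARE, TGATGNAA) bound by ATF4 and its partners was found in 7 of the 36 members, and in 4.51% of all genes with windows. These were Asns, Atf3, Chac1, Nupr1, Slc7a11 and Trib3 of the ATF4 arm and Herpud1 of the ER arm, so Herpud1 alone of the 36 held letters of an ERSE type and a CARE. The cAMP response element (CRE, TGACGTCA), which binds CREB in neurons with raised calcium, was found in Ppp1r15a alone of the 36. It was in 2.03% of all genes with windows. The 8 letters TGACGTGG of the unfolded protein response element were in none of the 36 and in 0.714% of all genes with windows. The stretches below hold the CARE or CRE letters in capitals, on the strand of the gene; a CARE on the other strand reads as its reverse complement.
Chac1: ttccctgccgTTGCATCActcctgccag
Asns: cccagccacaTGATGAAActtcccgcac
Slc7a11: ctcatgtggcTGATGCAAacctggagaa
Trib3: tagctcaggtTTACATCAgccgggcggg
Atf3: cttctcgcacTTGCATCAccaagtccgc
Ppp1r15a: gcctctccggTGACGTCAgcacagcgcc
They lie at chr2:119351039-119351066 (plus strand), chr6:7693215-7693242, chr3:50443662-50443689, chr2:152344029-152344056, chr1:191183426-191183453 and chr7:45526263-45526290 (the other 5 on the minus strand). These matches describe the letters of the windows, and binding was not measured. Since the list was made of known targets of these factors, its share of such elements is no independent result.

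**Figure D1:**
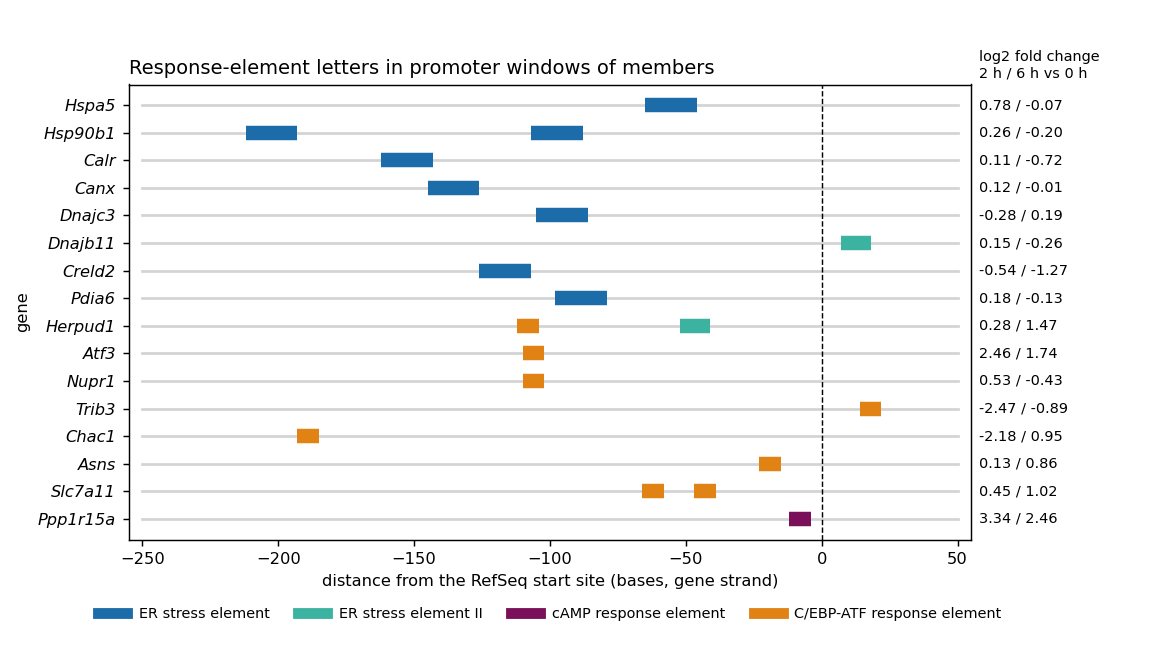
Position of response-element letters in the promoter windows of the members that hold any, in bases from the RefSeq start site on the strand of the gene, with the log2 fold changes at 2 h and at 6 h against 0 h written at the right. ERSE letters sit in ER-arm genes, whose changes at 6 h run from -1.27 (Creld2) to 0.19 (Dnajc3), and CARE letters are found in 6 genes of the ATF4 arm and in Herpud1, which has changes of 0.28 and 1.47.

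To compare the levels of the genes with each other, TPM values were used, since they account for transcript length. At 0 h the level was highest for Calr at a mean of 587 TPM, followed by Hsp90b1 (372), Canx (322) and Hspa5 (285), which encode abundant folding factors of the ER. Atf4 was at 162 TPM, Psat1 at 148 and Asns at 143. The lowest levels at 0 h were those of Trib3 (1.27 TPM), Atf3 (1.39), Nupr1 (2.46) and Ern1 (3.65). At 2 h Atf4, at 589 TPM, was at the level of Calr, at 551 TPM. All 41 genes had an adjusted p in each comparison and a mean normalized count of at least 10, so no member was left out by a filter on low values.

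**Figure D2:**
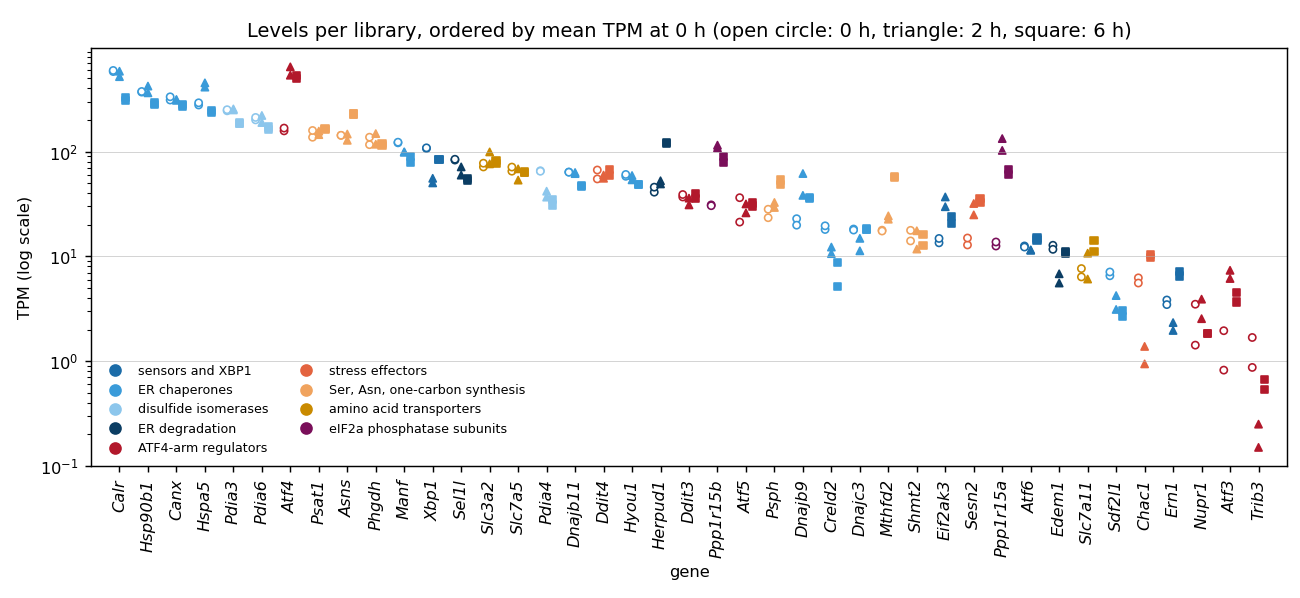
TPM of each member in each library on a log scale, ordered by the mean at 0 h, with open circles for 0 h, triangles for 2 h and squares for 6 h and colours for the roles. ER chaperones and isomerases make up the high end, from 587 TPM for Calr, and stress regulators the low end, down to 1.27 TPM for Trib3 at 0 h.

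To find the early change, 2 h was compared with 0 h in a DESeq2 fit over all genes. A gene was said to rise or fall when its adjusted p did not exceed 0.05, and was called when it also changed more than 2-fold. Of the 41 members, 12 rose (29.3%, against 12.3% of the 16840 genes tested) and 6 fell (14.6%, against 14.2%). Of these, 7 were called higher (17.1%, against 3.62%) and 2 were called lower (4.88%, against 5.94%). In the ATF4 arm 9 of 20 genes rose and 2 fell, and in the ER arm 3 of 21 rose and 4 fell. Without 0 h replicate 2, 5 of the ATF4 arm and 3 of the ER arm rose, and with GC correction these counts were 10 and 6 genes. The median log2 fold change was 0.33 in the ATF4 arm, 0.11 in the ER arm and 0.011 over 14668 genes. Each library left out in turn gave 6 to 7 members called higher and 1 to 2 called lower, and Dnajb9 was under the fold threshold without 2 h replicate 1 (log2 fold change 0.99). Psat1, Psph and Slc3a2 had adjusted p values of 0.0454, 0.0371 and 0.032, and all 3 lost significance in edgeR (0.066, 0.054 and 0.0535) and without either 0 h library (0.111 to 0.556). Psat1 and Psph were also lost with the replicate number as a block (0.0992 and 0.0653).

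At 6 h against 0 h, 16 of the 41 members rose (39%, against 23.7% of 17277 genes) and 8 fell (19.5%, against 21.7%), of which 10 were called higher (24.4%, against 9.10%) and 2 lower (4.88%, against 10.2%). In the ATF4 arm 11 of 20 genes rose. Genes of that arm that fell numbered 0 in DESeq2, also at an unadjusted p of 0.05, while Ddit3 fell in edgeR and with library totals as size factors. In the ER arm 5 genes rose and 8 fell, with 5 of the 11 chaperone genes, 2 of the 3 isomerase genes and Sel1l falling, and 3 of the 4 genes of the sensor group, the chaperone gene Dnajb9 and Herpud1 rising. The medians were 0.62 in the ATF4 arm, -0.13 in the ER arm and -0.004 over all genes. With library totals as size factors the median of all genes was -0.251, and 15 members fell, so the number of falling genes depends on the scaling. Of the 8 genes that fell, Dnajb11, Pdia3 and Sdf2l1 were lost when any single 0 h or 6 h library was left out, which left 4 or 5 genes lower, and Dnajb11 and Pdia3 also with the replicate block (adjusted p 0.0876 and 0.0622).

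From 2 h to 6 h, 10 members rose (24.4%, against 24.1% of 16404 genes) and 12 fell (29.3%, against 21.2%). With the fold threshold 4 were called higher (9.76%, against 10.1%), Ern1, Herpud1, Chac1 and Mthfd2. The count called lower was 0 (against 8.02% of all genes), and it was also 0 in DESeq2 at an unadjusted p of 0.05 and in edgeR. Of the 12 that fell, 10 were in the ER arm, in which 6 rose, and the other 2 were Ppp1r15a and Ppp1r15b of the ATF4 arm. The median was -0.38 in the ER arm, 0.08 in the ATF4 arm and 0.005 over all genes. Without 6 h replicate 1, 6 genes of the ER arm fell, and without 6 h replicate 2, 6 in place of 12 members fell. Dnajb11, Eif2ak3, Hsp90b1, Pdia6, Ppp1r15b and Sel1l were then no longer lower, at log2 fold changes of -0.39, -0.46, -0.42, -0.33, -0.28 and -0.36. Because the 3 comparisons share groups, their results are not independent of each other.

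**Figure D3:**
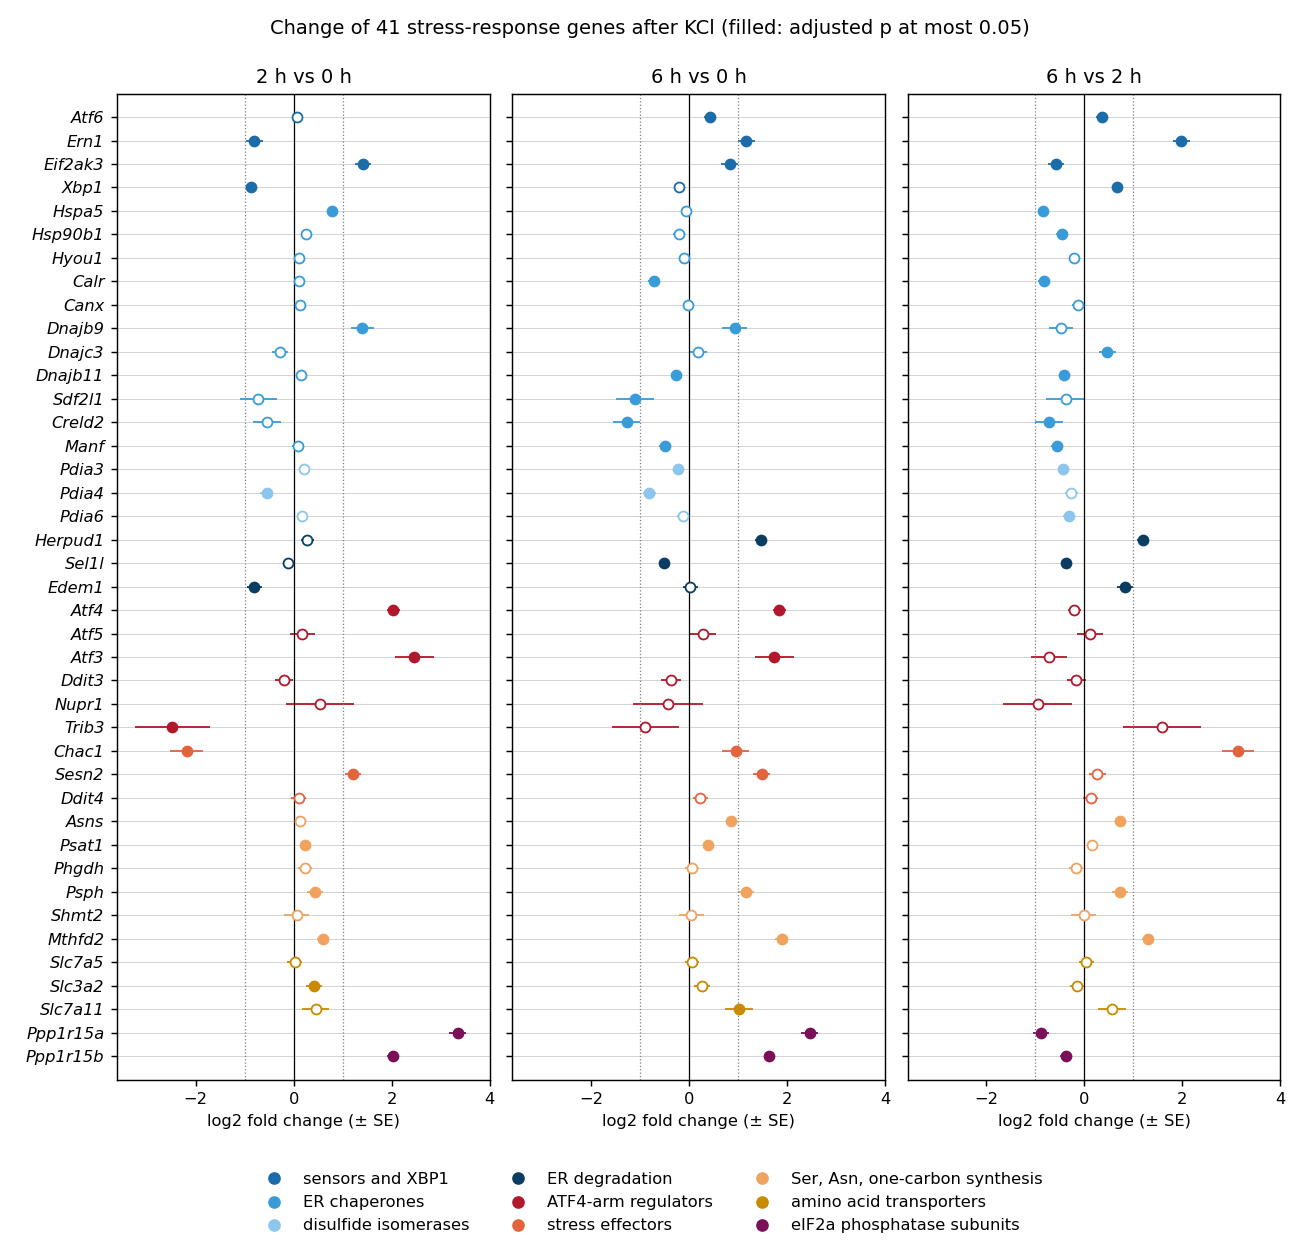
Log2 fold change (± SE, n = 2 libraries per group) of each of the 41 members in the 3 comparisons, with filled points where the adjusted p did not exceed 0.05, dotted lines at a 2-fold change and colours for the roles. Ppp1r15a lies furthest to the right at 2 h (3.34) and at 6 h (2.46), and at 6 h against 2 h most chaperone points lie left of 0 while Ern1 (1.98) and Chac1 (3.14) lie far to the right.

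The sensors moved in different directions. Eif2ak3 (ENSMUSG00000031668, chromosome 6, 70844515 to 70905245), which encodes PERK, had normalized counts of 803.4 and 870.5 at 0 h, 2021.2 and 2444.0 after 2 h and 1625.4 and 1352.0 after 6 h. The time points did not overlap, with the highest level at 2 h. The log2 fold change was 1.42 at 2 h (SE 0.16, adjusted p 4.71e-16) and 0.83 at 6 h (adjusted p 2.98e-06), and -0.58 from 2 h to 6 h (adjusted p 0.00126). Ern1 (ENSMUSG00000020715, chromosome 11, 106394650 to 106487852), which encodes IRE1α, took the other course, with 327.6 and 312.7 at 0 h, 193.7 and 173.7 after 2 h and 759.7 and 685.1 after 6 h. Both 2 h libraries were under and both 6 h libraries above those of 0 h. Its change was -0.80 at 2 h (SE 0.18, adjusted p 6.84e-05), 1.17 at 6 h (SE 0.17, adjusted p 1.58e-11) and 1.98 from 2 h to 6 h (adjusted p 9.36e-28). With library totals as size factors the change at 6 h was 0.93 and below the fold threshold.

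Xbp1 (ENSMUSG00000020484, chromosome 11, 5520659 to 5525893), the mRNA that IRE1 splices, fell at 2 h with Ern1. Its libraries had 2707.5 and 2730.4 normalized counts at 0 h, 1423.0 and 1559.0 after 2 h and 2371.2 and 2357.6 after 6 h. The 2 h libraries were the lowest, and the 6 h libraries lay between the other groups without overlap. The change was -0.87 at 2 h (SE 0.11, adjusted p 9.86e-14) and 0.67 from 2 h to 6 h (adjusted p 1.42e-08), while 6 h against 0 h gave -0.20 (adjusted p 0.12), or -0.24 with TMM size factors (adjusted p 0.0479) and -0.45 with library totals (adjusted p 9.63e-04). It also passed without 2 h replicate 1 or 2, at -0.20 and -0.21 (adjusted p 0.0266 and 0.028). The values are per gene and do not separate spliced from unspliced mRNA. Atf6 (ENSMUSG00000026663, chromosome 1, 170704674 to 170867771) was at 1237.5 and 1196.7 at 0 h, 1283.2 and 1268.5 after 2 h and 1683.2 and 1582.2 after 6 h. Only the 6 h libraries stood apart by more than the replicates, by 0.42 against 0 h (SE 0.11, adjusted p 6.76e-04), and this change was 0.26 with GC correction (adjusted p 0.0658) and 0.18 with library totals (adjusted p 0.226). Without any single 0 h or 6 h library it was 0.38 to 0.47 and did not pass the test. From 2 h to 6 h Atf6 rose by 0.36 (adjusted p 0.00527), which was 0.12 with GC correction (adjusted p 0.435) and did not pass without any single 0 h or 6 h library (adjusted p 0.0748 to 0.229).

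Among the ER chaperones, 2 of 11 rose at 2 h, Hspa5 and Dnajb9 (18.2%, against 12.3% of all genes). Hspa5 (ENSMUSG00000026864, chromosome 2, 34771970 to 34777547) encodes BiP, the main HSP70 chaperone of the ER, which also holds the sensors inactive. It had 9149.6 and 9442.7 normalized counts at 0 h, 15366.6 and 16596.0 after 2 h and 9171.3 and 8560.4 after 6 h. The rise was seen at 2 h only, and the 6 h libraries overlapped those of 0 h. The change was 0.78 at 2 h (SE 0.10, adjusted p 1.09e-12) and -0.85 from 2 h to 6 h (adjusted p 3.51e-15), and at 6 h it was -0.07 against 0 h, with a 95% interval from -0.27 to 0.13. With library totals as size factors the last value was -0.31 (adjusted p 0.0176).

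Dnajb9 (ENSMUSG00000014905, chromosome 12, 44205559 to 44210326), a J-domain co-chaperone of BiP that represses IRE1, was at 506.9 and 433.2 at 0 h, 1544.8 and 941.8 after 2 h and 890.3 and 904.5 after 6 h. All treated libraries were above those of 0 h, and the 2 h replicates differed widely. The change was 1.40 at 2 h (SE 0.24, adjusted p 1.56e-07) and 0.93 at 6 h (adjusted p 5.26e-04). The mean was highest at 2 h, as for Hspa5, but Dnajb9 changed by -0.47 from 2 h to 6 h (adjusted p 0.103), or by -0.62 with GC correction (adjusted p 7.86e-04).

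No other chaperone gene rose in either comparison with 0 h, except that Hsp90b1 rose at 2 h with GC correction (0.35, adjusted p 7.91e-04) and without 2 h replicate 2 (0.36, adjusted p 3.01e-06), as did Canx without that library (0.19, adjusted p 0.0294). Creld2 (ENSMUSG00000023272, chromosome 15, 88819646 to 88826683), an ER protein induced by classic ER stress, was at 271.6 and 289.1 at 0 h, 179.7 and 204.7 after 2 h and 87.7 and 145.2 after 6 h. Every later library was under every earlier one, and the change at 6 h was -1.27 (SE 0.28, adjusted p 3.77e-05), or -0.95 without 6 h replicate 1. Sdf2l1 (ENSMUSG00000022769, chromosome 16, 17130138 to 17132383), a partner of BiP in the ER, was at 74.6 and 79.2 at 0 h, 53.9 and 39.3 after 2 h and 38.5 and 33.3 after 6 h. The groups did not overlap, and the change at 6 h was -1.10 (SE 0.39, adjusted p 0.013). This call is weak. It was lost when any of the 0 h or 6 h libraries was left out (adjusted p 0.11 to 0.196), and with GC correction the change was -0.95.

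Calr, which encodes the calcium-binding lectin chaperone calreticulin, fell late. It had 11353.8 and 11592.5 normalized counts at 0 h, 11976.3 and 12731.6 after 2 h and 7288.1 and 6617.9 after 6 h. The 6 h libraries were well under the rest, by -0.72 against 0 h (SE 0.11, adjusted p 7.90e-11). Manf, a secreted ER protein that protects neurons, changed by -0.49 at 6 h (adjusted p 7.23e-05, but 0.0575 without 0 h replicate 1 and 0.0581 without 6 h replicate 1), and it overlaps the expressed genes Dcaf1 and Rbm15b. The other lectin chaperone, Canx, passed the test in no comparison, with a value of -0.01 at 6 h and a 95% interval from -0.24 to 0.21, although it was lower by -0.22 with GC correction (adjusted p 0.0348) and by -0.26 with library totals (adjusted p 0.0366). From 2 h to 6 h Canx was lower by -0.43 with GC correction (adjusted p 2.14e-05) and by -0.21 without 2 h replicate 2 (adjusted p 0.0101). Hyou1, an exchange factor for BiP, passed the test in no comparison, although from 2 h to 6 h it was lower by -0.25 in edgeR and with TMM size factors (adjusted p 0.0458 and 0.033), by -0.29 with library totals (0.0308) and by -0.26 without 2 h replicate 1 (0.00987). At 6 h against 0 h it was lower with library totals only (-0.35, adjusted p 0.00826). Hsp90b1, the HSP90 of the ER, fell from 2 h to 6 h (-0.46, adjusted p 5.89e-04). With GC correction this was -0.76 (adjusted p 7.88e-16), and the change at 6 h against 0 h was -0.42 (adjusted p 1.71e-05). The latter change was -0.20 and passed the test without 2 h replicate 1 or 2 (adjusted p 8.63e-04 and 9.64e-04). Its counts were non-whole in all 6 libraries because reads were shared with other genes. Dnajc3, an inhibitor of PERK, was the only chaperone gene that rose from 2 h to 6 h (0.47, adjusted p 0.0162), and this was lost with GC correction (0.21, adjusted p 0.0692) and without any single library other than 2 h replicate 1. Dnajb11 was at -0.26 at 6 h against 0 h (adjusted p 0.0391).

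All 7 of the members with ERSE letters belong to these chaperones and isomerases. Of the 7, Hspa5 alone rose at 2 h (1 of 7, against 12.3% of all genes), and at 6 h against 0 h Calr and Creld2 were lower (2 of 7, against 21.7%) and the other 5 did not pass the test. With GC correction Hsp90b1 also rose at 2 h, and Hsp90b1 and Canx were also lower at 6 h. With library totals as size factors Hspa5, Hsp90b1 (-0.45, adjusted p 3.28e-04), Canx and Pdia6 were lower at 6 h too, so all but Dnajc3 of the 7 were then lower. The isomerases form disulfide bonds in proteins of the ER. At 2 h Pdia3 was at 0.21 (adjusted p 0.0756), but it rose with GC correction (0.23, adjusted p 0.0035) and with GC correction and the replicate block (adjusted p 0.0288). Pdia6 was at 0.18 at 2 h (adjusted p 0.291), or at 0.27 without 2 h replicate 1. Pdia4 was lower at both times, by -0.55 at 2 h (adjusted p 2.93e-04, but 0.0943 and 0.0668 without 0 h replicate 1 or 2) and by -0.81 at 6 h (adjusted p 1.25e-08), Pdia3 was at -0.23 at 6 h (adjusted p 0.0247), and Pdia6 was lower from 2 h to 6 h (-0.31, adjusted p 0.0194). The change of Pdia6 was lost without any single 0 h or 6 h library (adjusted p 0.0965 to 0.231), and with library totals it was also lower at 6 h against 0 h (-0.38, adjusted p 0.0109).

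The degradation factors split. Herpud1 (ENSMUSG00000031770, chromosome 8, 94386438 to 94395377), a membrane organizer of the ubiquitin ligase complex that removes misfolded proteins, was at 673.8 and 729.0 at 0 h, 843.8 and 855.0 after 2 h and 2018.1 and 1875.8 after 6 h. The 6 h libraries were more than 2-fold above all others. The change was 0.28 at 2 h (adjusted p 0.0967, or 0.0276 with GC correction), 1.47 at 6 h (SE 0.12, adjusted p 2.01e-30) and 1.20 from 2 h to 6 h (adjusted p 2.90e-20). Sel1l, an adaptor of the same ligase complex, fell at 6 h by -0.50 (SE 0.09, adjusted p 5.23e-07). Edem1, which directs misfolded glycoproteins to degradation, fell at 2 h by -0.80 (adjusted p 1.16e-05) and was back at 6 h, with 0.03 against 0 h (95% interval from -0.29 to 0.34) and 0.83 from 2 h to 6 h (adjusted p 2.66e-06). Ern1, Xbp1 and Edem1 of the ER arm and Chac1 of the ATF4 arm were the 4 members that fell at 2 h and then rose from 2 h to 6 h.

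**Figure D4:**
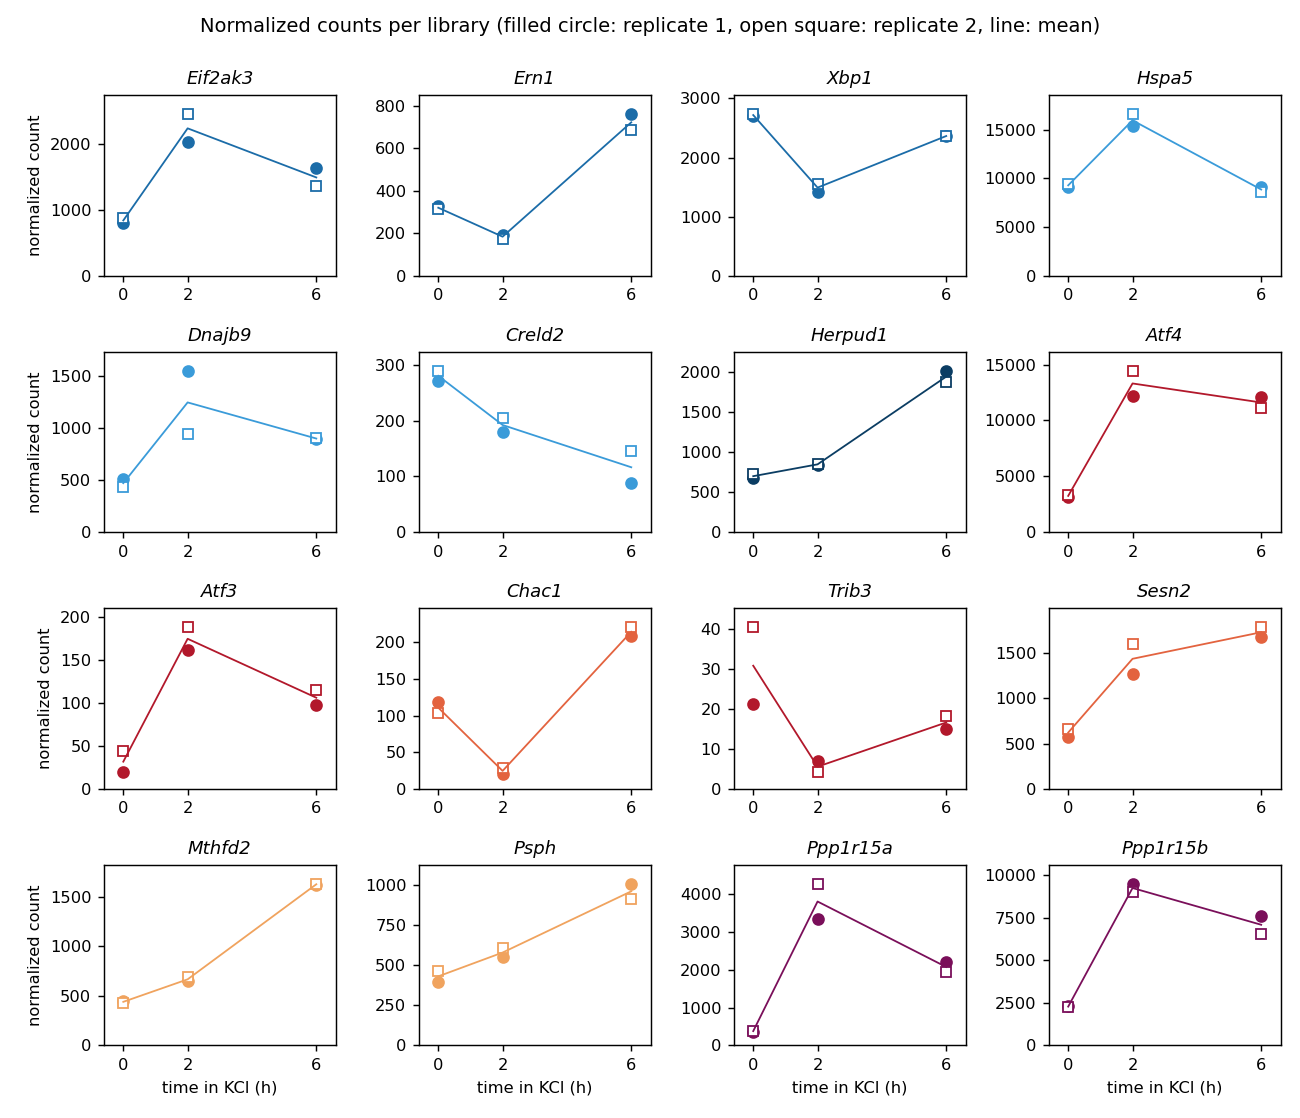
Normalized counts of 16 members in each library against the time in KCl, with circles for replicate 1, squares for replicate 2 and lines through the means, each panel on its own linear axis from 0. Eif2ak3, Hspa5, Ppp1r15a and Ppp1r15b are highest at 2 h, Ern1, Herpud1, Chac1, Psph and Mthfd2 are highest at 6 h, and Ern1, Xbp1, Chac1 and Trib3 are lowest at 2 h.

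In the ATF4 arm, the regulators themselves were examined first. Atf4 (ENSMUSG00000042406, chromosome 15, 80255184 to 80257541), the central transcription factor of its arm, was at 3178.0 and 3324.5 normalized counts at 0 h, 12185.0 and 14425.0 after 2 h and 12090.4 and 11113.8 after 6 h. All treated libraries were above 3-fold the 0 h level. The change was 2.03 at 2 h (SE 0.13, adjusted p 5.78e-53) and 1.84 at 6 h (SE 0.13, adjusted p 1.91e-43), and from 2 h to 6 h it was -0.20 (adjusted p 0.21), or -0.31 without 2 h replicate 1 (adjusted p 3.00e-04). Atf3 (ENSMUSG00000026628, chromosome 1, 191170296 to 191218039), a stress-induced repressor that is also an activity-regulated gene, was at 19.5 and 43.8 at 0 h, 161.8 and 188.2 after 2 h and 97.4 and 115.1 after 6 h. It was low throughout but without overlap between the time points, and rose by 2.46 at 2 h (SE 0.40, adjusted p 1.20e-08) and by 1.74 at 6 h (SE 0.40, adjusted p 6.77e-05).

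Ddit3 and Trib3 did not follow Atf4. Ddit3 (ENSMUSG00000025408, chromosome 10, 127290774 to 127296288) encodes CHOP, a factor of sustained ER stress that promotes cell death. It was at 294.7 and 284.8 at 0 h, 233.7 and 269.8 after 2 h and 235.4 and 214.0 after 6 h. The treated libraries were slightly under those of 0 h, by -0.20 at 2 h (SE 0.19, adjusted p 0.513) and -0.37 at 6 h (SE 0.20, adjusted p 0.116), and the upper limits of the 95% intervals were 0.18 and 0.02. The change at 6 h was -0.41 in edgeR (adjusted p 0.0418) and -0.61 with library totals as size factors (adjusted p 0.00842). Ddit3 lies in an overlap with Mars on the other strand, so its counts are uncertain where strand was not used.

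Trib3 (ENSMUSG00000032715, chromosome 2, 152337422 to 152344032), a pseudokinase that inhibits ATF4 and CHOP, was among the lowest of the members, with 21.3 and 40.5 normalized counts at 0 h, 7.0 and 4.1 after 2 h and 15 and 18.3 after 6 h. Both 2 h libraries were the lowest. Its change at 2 h was -2.47 (SE 0.77, adjusted p 0.00691), and it was no longer significant without 0 h replicate 1 (-2.85, adjusted p 0.0517), 0 h replicate 2 (-1.93, adjusted p 0.335) or 2 h replicate 2 (-2.16, adjusted p 0.102). Atf5 and Nupr1, a pair of further stress regulators, passed the test in no comparison, but without 0 h replicate 2 Atf5 rose at 6 h by 0.72 (adjusted p 0.0188). Of the 6 regulators, Atf4 and Atf3 rose at both times.

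Among the stress effectors, Chac1 fell and then rose. This gene (ENSMUSG00000027313, chromosome 2, 119351229 to 119354381), an enzyme that degrades glutathione and a known target of ATF4, was at 118.1 and 103.7 at 0 h, 20 and 28.9 after 2 h and 208.7 and 220.5 after 6 h. Both 2 h libraries were far under and both 6 h libraries above the level at 0 h. The change was -2.18 at 2 h (SE 0.33, adjusted p 1.40e-09), 0.95 at 6 h (SE 0.27, adjusted p 0.00142) and 3.14 from 2 h to 6 h (SE 0.33, adjusted p 5.95e-20), an 8.79-fold difference. The value at 6 h against 0 h did not pass the test without 0 h replicate 2 (adjusted p 0.112), 6 h replicate 1 (0.0815) or 6 h replicate 2 (0.119). Sesn2 (ENSMUSG00000028893, chromosome 4, 132492032 to 132510501), a leucine-binding inhibitor of mTORC1, was at 577.9 and 665.8 at 0 h, 1271.2 and 1604.5 after 2 h and 1678.9 and 1784.4 after 6 h. It rose without overlap by 1.21 at 2 h (SE 0.17, adjusted p 2.13e-11) and 1.48 at 6 h (SE 0.17, adjusted p 3.18e-17). From 2 h to 6 h Sesn2 was at 0.27 and did not pass, but it rose by 0.46 with GC correction (adjusted p 3.75e-05) and without 2 h replicate 2 (adjusted p 0.0034). Ddit4, another inhibitor of mTORC1, was at 0.10 and 0.23 (adjusted p 0.717 and 0.214), and at 0.37 at 6 h with GC correction (adjusted p 0.00487).

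Of the 6 genes of serine, asparagine and 1-carbon synthesis, 3 rose at 2 h (against 12.3% of all genes), of which Psat1 and Psph were lost in edgeR and with the replicate block, and 4 rose at 6 h (against 23.7%). Mthfd2 (ENSMUSG00000005667, chromosome 6, 83305691 to 83325908), a mitochondrial enzyme of folate metabolism, was at 449.2 and 428.9 at 0 h, 647.1 and 685.4 after 2 h and 1623.3 and 1628.4 after 6 h. It rose at both steps, by 0.60 at 2 h (SE 0.13, adjusted p 3.96e-05) and a further 1.29 from 2 h to 6 h (SE 0.12, adjusted p 3.59e-23), with 0.58 for the first step without 0 h replicate 2 (adjusted p 0.0578). Its change at 6 h against 0 h was 1.89 (SE 0.13, adjusted p 5.07e-48). Psph (ENSMUSG00000029446, chromosome 5, 129765558 to 129787449), which makes serine in the last step of its synthesis, was at 393.3 and 466.0 at 0 h, 551.2 and 604.8 after 2 h and 1004.8 and 914.2 after 6 h. It also rose at both steps, although the first (0.43, adjusted p 0.0371) was lost in edgeR, with library totals, with the replicate block and without any single library other than 2 h replicate 1. At 6 h against 0 h it rose by 1.16 (SE 0.16, adjusted p 1.05e-11), or 0.91 with library totals. Psph overlaps the expressed gene Cct6a on the other strand.

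Asns (ENSMUSG00000029752, chromosome 6, 7675169 to 7693254), asparagine synthetase, was at 3408.8 and 3382.7 at 0 h, 3489.1 and 3943.0 after 2 h and 6176.3 and 6126.4 after 6 h. Only the 6 h libraries stood clearly apart, by 0.86 against 0 h (SE 0.11, adjusted p 1.26e-13) and 0.73 against 2 h (adjusted p 5.33e-10), while the change at 2 h was 0.13 (adjusted p 0.452). Psat1, the middle enzyme of serine synthesis, rose by 0.39 at 6 h (adjusted p 2.22e-04), or 0.14 with library totals (adjusted p 0.304). It did not pass without 0 h replicate 1 (adjusted p 0.109), 6 h replicate 1 (0.0941) or 6 h replicate 2 (0.0544). Phgdh, the first enzyme of the same route, was at 0.06 with a 95% interval from -0.24 to 0.36, and Shmt2, which splits serine in mitochondria, at 0.05 with an interval from -0.44 to 0.53. The rise at 6 h was seen in the later enzymes of serine synthesis, Psat1 and Psph, and not detected in Phgdh, although the difference between these genes was not tested. Without 2 h replicate 1, Phgdh rose at 2 h by 0.37 (adjusted p 0.00249).

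Among the transporters, Slc7a11 (ENSMUSG00000027737, chromosome 3, 49892526 to 50443614), the cystine carrier that feeds glutathione synthesis, was at 797.2 and 955.7 at 0 h, 1541.8 and 857.0 after 2 h and 2002.0 and 1553.1 after 6 h. Of the 2 h libraries, replicate 2 lay within the range of 0 h and replicate 1 just under the 6 h libraries, which were both above those of 0 h. The change at 2 h was 0.45 (adjusted p 0.25), but it passed the test with GC correction (0.48, adjusted p 0.0476) and without 2 h replicate 2 (0.80, adjusted p 1.23e-05). The change at 6 h was 1.02 (SE 0.28, adjusted p 8.61e-04), hardly above the threshold of 1. It was 0.86 with GC correction, 0.98 in edgeR, 0.99 with the replicate block, 0.77 with library totals, 0.90 without 0 h replicate 1 and 0.82 without 6 h replicate 1 (adjusted p 0.0604). Its counts were non-whole in 2 libraries. Slc3a2 and Slc7a5 form a carrier of large neutral amino acids. Slc3a2 was at 0.41 at 2 h (adjusted p 0.032) and Slc7a5 at 0.02 (adjusted p 0.955). At 6 h Slc3a2 was at 0.27 (adjusted p 0.145), but passed with GC correction (0.42, adjusted p 5.54e-05) and without 2 h replicate 1 or 2 (adjusted p 0.00264 and 0.00333), and Slc7a5 passed with GC correction only (0.21, adjusted p 0.0388).

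The subunits that direct protein phosphatase 1 to eIF2α, and so reverse the block of translation, both rose at both times. Ppp1r15a (ENSMUSG00000040435, chromosome 7, 45522916 to 45526268), which encodes the inducible subunit GADD34, was at 363.1 and 391.0 at 0 h, 3346.3 and 4272.8 after 2 h and 2206.4 and 1944.6 after 6 h. The time points did not overlap, with a peak at 2 h. The change was 3.34 at 2 h (SE 0.17, adjusted p 6.08e-83), a 10.1-fold rise and the highest of the 41 members at this time, and 2.46 at 6 h (SE 0.17, adjusted p 5.95e-45). Ppp1r15b (ENSMUSG00000046062, chromosome 1, 133131143 to 133139783), which encodes the constitutive subunit CReP, was at 2324.9 and 2232.4 at 0 h, 9491.8 and 9023.2 after 2 h and 7620.8 and 6568.5 after 6 h. It rose in the same order, by 2.02 at 2 h (SE 0.12, adjusted p 1.09e-59) and 1.64 at 6 h (adjusted p 2.03e-39). In TPM, Ppp1r15b was above Ppp1r15a at 0 h (30.7 and 13.1), and at 2 h both were at a like level (112 and 118). From 2 h to 6 h Ppp1r15a fell by -0.88 (adjusted p 6.69e-07) and Ppp1r15b by -0.38 (adjusted p 0.00434).

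Over both steps of the DESeq2 fit of all libraries, Psph and Mthfd2 rose at each, 6 members rose by 2 h and did not pass the test afterwards (Dnajb9, Atf4, Atf3, Sesn2, Psat1 and Slc3a2), and 4 rose by 2 h and then fell (Eif2ak3, Hspa5, Ppp1r15a and Ppp1r15b). A further 4 rose after 2 h only (Atf6, Dnajc3, Herpud1 and Asns) and 8 fell after 2 h only, all of the ER arm. In all, 16 members were called in at least 1 comparison, 32 passed the test in at least 1, and 9 passed in none (Hyou1, Canx, Atf5, Ddit3, Nupr1, Ddit4, Phgdh, Shmt2 and Slc7a5).

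Other genes of the same pathways were then counted from a list of 110, of which 107 had an adjusted p (106 for 6 h against 2 h). At 2 h 16 rose and 13 fell (15% and 12.1%, against 12.3% and 14.2% of all genes tested), shares near those of all genes. At 6 h 37 rose and 25 fell (34.6% and 23.4%, against 23.7% and 21.7%), and from 2 h to 6 h 27 rose and 26 fell (25.5% and 24.5%, against 24.1% and 21.2%). Those called were 2 higher and 2 lower at 2 h (1.87% each, against 3.62% and 5.94%), 9 and 11 at 6 h (8.41% and 10.3%, against 9.10% and 10.2%) and 11 and 7 from 2 h to 6 h (10.4% and 6.6%, against 10.1% and 8.02%), shares close to or under those of all genes. Among 38 ATF4-arm targets with an adjusted p, 18 rose and 4 fell at 6 h (47.4% and 10.5%, against 23.7% and 21.7%). Slc38a2, a carrier of neutral amino acids, rose by 2.09 at 2 h and by 2.21 at 6 h (adjusted p 2.69e-76 and 1.83e-85), and Stc2, a secreted glycoprotein, by 1.70 at 6 h. Called in this list at 6 h were 5 higher and 3 lower, the latter being Lars, Pck2, a mitochondrial enzyme that makes phosphoenolpyruvate (-1.62, adjusted p 1.23e-07), and Cbs, an enzyme that makes cystathionine (-1.09, adjusted p 2.40e-08). Of 12 genes of aminoacyl-tRNA synthetases, 8 rose at 6 h, Lars and Wars fell, and Mars and Sars did not pass the test. Iars and Eprs rose by 1.49 and 1.38 (adjusted p 2.23e-52 and 6.04e-55), while Lars was at -1.39 (adjusted p 1.06e-34).

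Among 56 other genes of ER folding, quality control and degradation, 16 rose and 17 fell at 6 h (28.6% and 30.4%, against 23.7% and 21.7% of all genes). Map3k5, the kinase ASK1 that acts downstream of IRE1, rose by 3.12 (SE 0.13, adjusted p 2.30e-125), from a mean of 6.63 TPM at 0 h to 52.9 TPM at 6 h. Dnajc1 and Selenok were also called higher, at 1.45 and 1.07 (adjusted p 3.74e-15 and 7.79e-29). In all, 3 of the 56 were called higher and 5 lower at 6 h (5.36% and 8.93%, against 9.10% and 10.2% of all genes). Sil1, an exchange factor for BiP, was lower by -1.73 (adjusted p 1.46e-10), and Dnajc10, a disulfide reductase of the ER, by -1.46 (adjusted p 8.43e-31). Derl2, a part of the export channel for misfolded proteins, was lower by -1.55 (adjusted p 2.43e-15), and Edem2 and Cdk5rap3 by -1.44 and -1.06. Among the 13 genes of eIF2α kinases, eIF2B and their regulators, Impact, an inhibitor of the kinase GCN2, rose by 1.43 at 6 h (adjusted p 3.54e-13). Dele1 and Oma1, which relay mitochondrial stress to the eIF2α kinase HRI, were lower by -1.92 and -1.50 (adjusted p 1.37e-21 and 3.92e-08), and Eif2b3, a subunit of the exchange factor eIF2B, by -1.16 (adjusted p 4.93e-10).

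Finally, effective lengths, which depend on which transcripts of a gene are in use, were tested for the 38 members with enough counts. At 6 h against 0 h Ddit3 was the only member called, against 0.525% of 11233 genes. Its effective length was 564 and 520 bases at 0 h, 466 and 472 bases after 2 h and 366 and 374 bases after 6 h, and the log2 ratio at 6 h was -0.55 (limma adjusted p 0.0474). The lengths were shorter in every later group without overlap. In TPM, which are corrected for this length, Ddit3 had means of 37.9 at 0 h and 37.8 at 6 h, while its normalized counts were lower in both 6 h libraries than in both 0 h libraries. The part of the overlap with Mars in these values was not tested.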

How the data were processed

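The members, their roles and the other gene lists were chosen with earlier results of these data known. Their shares of rising and falling genes, set beside those of all genes, are therefore not independent of these data. According to its methods, the study used stranded paired-end libraries from poly(A) RNA, and its authors mapped trimmed reads to mm10 and ran RSEM (RSEM 1.3.0 and Bowtie2 2.2.9 in the submitters' processing notes). The annotation release and the strand setting of RSEM are not given in the sources used here. As deposited, the expected counts share multi-mapped reads among genes and have no normalization. RSEM, run by the authors, also gave TPM, corrected for length and scaled per library. Effective lengths, likewise deposited, are in bases. The FPKM column was not used.

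Expected counts were rounded, and 22515 genes with a count entered 1 DESeq2 1.42.0 fit (R 4.3.3) of all 6 libraries by group. The Wald test with unshrunken log2 fold changes was used, following the tool and thresholds of the study. The Benjamini-Hochberg adjustment ran over the genes left by DESeq2's own filter on the mean count in each comparison. These were 16840 genes for 2 h against 0 h, 17277 for 6 h against 0 h and 16404 for 6 h against 2 h, called the genes tested. Intervals are 95%. Normalized counts are counts divided by size factors and are not comparable between genes. Effective lengths were tested with limma 3.58.1 over genes whose mean count was 100 or more, at an absolute log2 ratio of at least 0.2. Alternatives were edgeR 4.0.16, other size factors, a mean normalized count of at least 10, GC correction, a replicate block, a test against a 2-fold change and each library left out. The procedure was tested on simulated data. Full values are given for members called in any comparison, for the sensor group, and for Hspa5, Atf4, Ddit3 and Asns. Calr was given in full after its values were seen. Of the other pathway genes, only called ones are named, apart from 3 tRNA synthetase genes. Positions are GRCm38 (GENCODE M21), 1-based. Standard errors, intervals and p-values include the spread between libraries.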

Additional observations from a re-analysis of the deposited data

How the results depend on the processing

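Over 13 alternatives, 1440 of 1599 values of single members kept their direction and their side of the threshold, 92 lost significance, 67 gained it and none that passed the test in either fit reversed. Most losses (69 of 92) came from leaving out 1 library. Tested against a 2-fold change, 4 members were called higher and 1 lower at 2 h, 5 higher and 0 lower at 6 h, and 2 higher from 2 h to 6 h. With GC correction, and with GC correction and the replicate block, 1 member was called lower at 6 h, Creld2. With library totals as size factors the median log2 fold change of all genes was -0.156 at 2 h and -0.251 at 6 h, and 15 members passed the test as lower at 6 h. Without 1 library each, members called higher and lower numbered 6 to 7 and 1 to 2 at 2 h, 9 to 11 and 0 to 2 at 6 h, and 4 to 6 and 0 to 1 from 2 h to 6 h. Those past the test numbered 8 to 15 and 4 to 7, 12 to 17 and 4 to 10, and 8 to 11 and 6 to 17. From 2 h to 6 h, Ppp1r15a was called lower without 2 h replicate 1 and Creld2 without 6 h replicate 2. The cause of these shifts was not tested. With promoters searched only upstream of the start, ERSE-II was found in 1 in place of 2 members and CARE in 6 in place of 7.

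The labels number the replicates, but same-numbered libraries did not deviate together in every comparison (correlations 0.281, -0.002 and 0.152), so the numbers were not taken as pairs. With the replicate block 7 members were called higher and 2 lower at 2 h, 9 and 2 at 6 h, and 4 and 0 from 2 h to 6 h, while those that rose at 2 h numbered 10 in place of 12 and those that fell at 6 h 6 in place of 8. Normalized counts do not account for length, so no order between genes was taken from them in place of TPM. With 2 libraries per group, changes of Trib3, Sdf2l1, Nupr1 and other low genes were measured with wide errors.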
